A study of Mus musculus with 14 samples.

Results

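Myc and 37 genes whose products build ribosomes were followed through naive CD4+ T cells of the mouse and through Th1 cultures that had received a compound against DOT1L, a histone methyltransferase, or its inactive control. The 38 genes were taken by name from a table of read counts for 22048 protein-coding genes. All 38 were found, each under 1 identifier, and all 38 were among the 12343 genes with enough reads to be tested.

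The transcription factor Myc binds DNA as a pair with Max and raises transcription of genes for cell growth, among them many of those that make ribosomes. A ribosome begins in the nucleolus, where RNA polymerase I (Pol I) copies the ribosomal DNA into one long precursor RNA. Box C/D and box H/ACA small nucleolar ribonucleoproteins (snoRNPs) guide methylation and pseudouridylation of that precursor, and assembly factors cut, fold and export it as a small and a large subunit. T cells that meet antigen switch on Myc and enlarge their nucleoli before they divide.

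The cells came from spleen and peripheral lymph nodes of C57BL/6 mice that carry a YFP reporter of interferon-gamma. Naive cells (n = 3) were sorted as CD4+ CD44- CD62L+ and were not cultured. The cultures were started from CD4+ T cells that were enriched and not sorted for the naive state. They ran for 4 days under Th1 conditions: antibodies to CD3 and CD28 bound to the plate (1 µg/ml each), IL-12 and IL-2 (10 ng/ml each) and anti-IL4 (10 µg/ml), so every cultured group shares these agents. SGC0946, the DOT1L inhibitor, or SGC0649, the inactive control, was present at 1 µM, and YFPpos and YFPneg cells were sorted at the end. The groups were YFPneg with SGC0649 (n = 2, numbers 61 and 62), YFPneg with SGC0946 (n = 3, numbers 91 to 93), YFPpos with SGC0649 (n = 3, numbers 61 to 63) and YFPpos with SGC0946 (n = 3, numbers 91 to 93). No culture without a compound and no YFPneg library numbered 63 was analysed here. The labels give neither the age nor the sex of the mice. The series design calls the samples biological replicates and does not state separate animals, so the p-values measure the spread between these libraries.

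Libraries held 14486577 to 31614057 counted reads. A level is given as counts per 1000000 (CPM) after TMM scaling, so it is a share of the library and not an amount per cell. The 7 markers of CD4+ T cells summed to 3960 to 4090 CPM in naive and 2960 to 3510 CPM in cultured libraries. Markers of B cells and NK cells summed to 0 to 2.61 CPM. Cd8a and Cd8b1 summed to 16.1 to 19.3 CPM in naive cells, 6.5 to 9.51 CPM in YFPneg SGC0649, 12.2 to 19.7 CPM in YFPneg SGC0946 and 4.76 to 6.63 CPM in YFPpos cells. Changes are log2 fold changes from edgeR's quasi-likelihood test with Benjamini-Hochberg adjustment across the 12343 genes tested, and a gene is called at an adjusted p under 0.05.

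The 38 genes together took 0.436% ± 0.00213 (SD, n = 3) of the counts in naive cells. Their share was 0.788% ± 0.0368 (n = 2) in YFPneg and 0.998% ± 0.127 (n = 3) in YFPpos cells with SGC0649. With SGC0946 it was 0.676% ± 0.022 (n = 3) in YFPneg and 0.764% ± 0.0609 (n = 3) in YFPpos cells. The mean was highest in YFPpos SGC0649 for 36 of the 38 genes, and in YFPneg SGC0649 for Tcof1 and Ubtf. It was lowest in naive cells for 25 genes, in YFPneg SGC0946 for 9 and in YFPpos SGC0946 for 4.

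**Figure D1:**
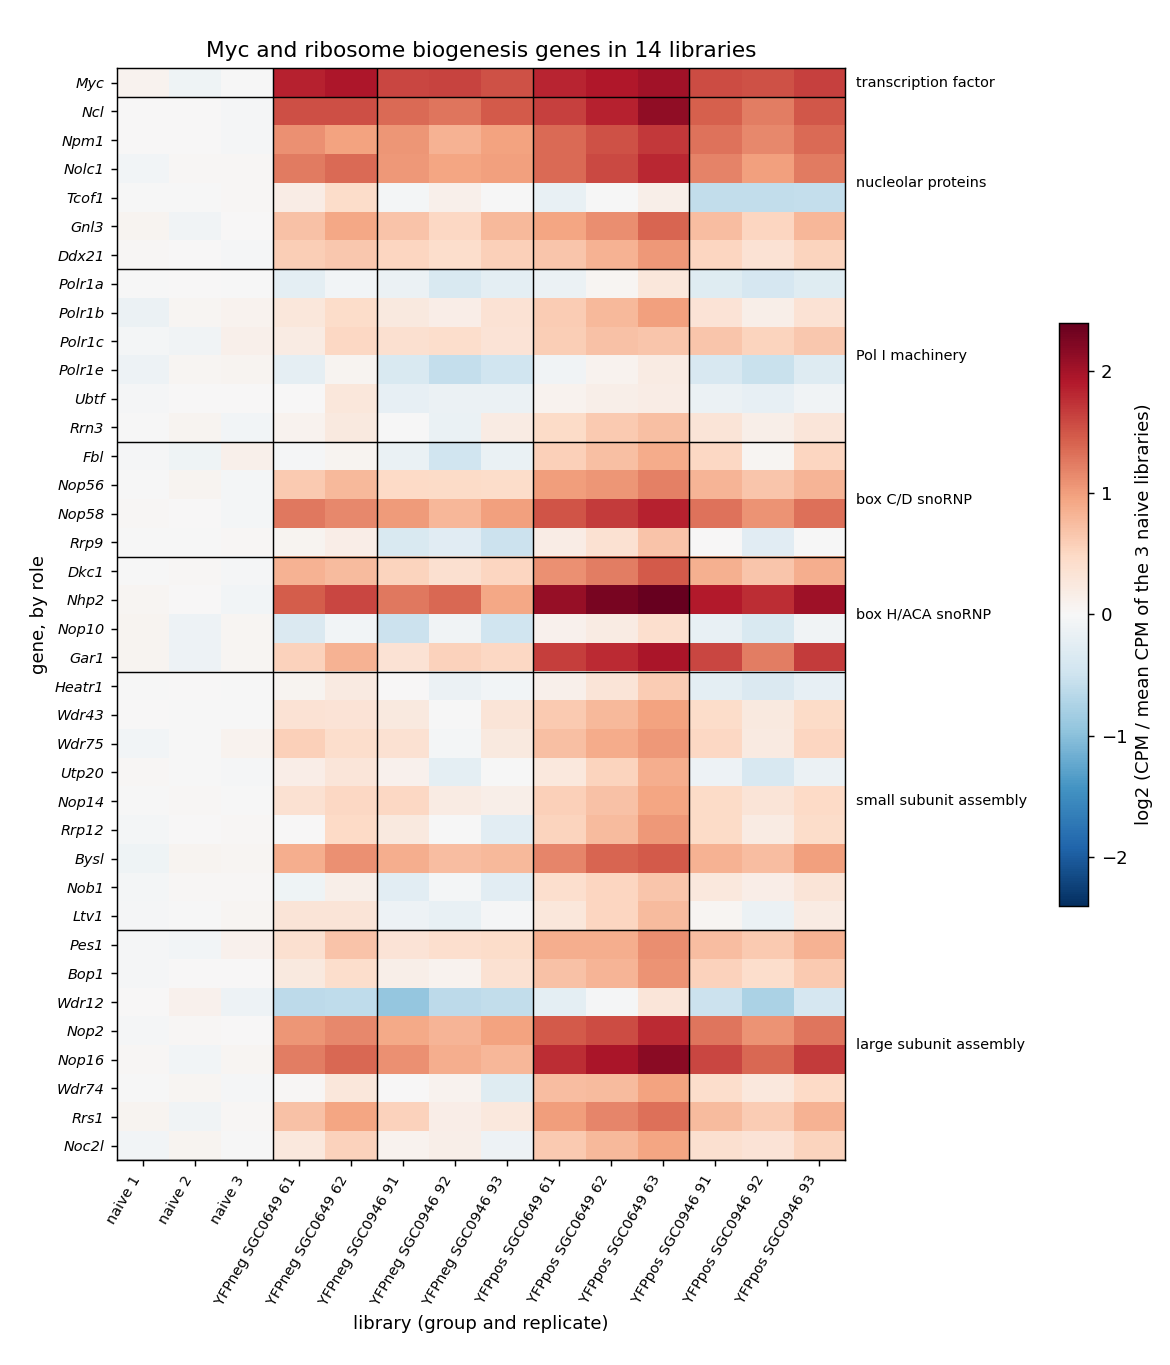
Each row is a gene, grouped by role, each column a library, and the colour is the log2 of its CPM over the mean of the naive libraries. Most rows are highest in the YFPpos SGC0649 columns, and within those columns replicate 61 is the lowest library in 38 of 38 rows.

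The 3 YFPpos SGC0649 libraries did not sit together. Replicate 61 was the lowest of the 3 for 38 of 38 genes and replicate 63 the highest for 37, where among all tested genes replicate 61 was lowest for 39.8% and replicate 63 highest for 41.5%. The summed level of the 38 genes was 8685, 9725 and 11240 CPM in replicates 61, 62 and 63. Among the YFPpos SGC0946 libraries, replicate 92 was lowest for 37 of 38 genes (35.5% of all tested genes), at a summed 6796 CPM against 7619 and 7869 CPM in replicates 91 and 93. Replicate 92 also stood apart in its reads: 3.61% did not map, against 6.44% to 8.35% in the other YFPpos libraries. Counts of calls with the inhibitor in YFPpos cells are given below with and without replicates 63 and 92. Most changes of single genes are given with all libraries.

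Myc rose in all 4 cultured groups. Its gene lies at chr15:61985391-61990374 on the plus strand of GRCm38. It stood at 120, 105 and 112 CPM in the 3 naive libraries. In SGC0649 cultures it was at 407 and 434 CPM in YFPneg cells and at 398, 427 and 457 CPM in YFPpos cells. In SGC0946 cultures it was at 342, 346 and 326 CPM in YFPneg cells and at 332, 324 and 353 CPM in YFPpos cells. All naive libraries were lowest, all SGC0649 libraries highest and all SGC0946 libraries lay between them without overlap, while the YFPneg and YFPpos values overlapped with each compound. Against naive cells Myc rose by 1.92 (SE 0.07, adjusted p = 2.49e-14) in YFPpos SGC0649, 1.90 (SE 0.07, adjusted p = 1.64e-13) in YFPneg SGC0649, 1.58 (adjusted p = 3.22e-13) in YFPpos SGC0946 and 1.58 (adjusted p = 6.25e-13) in YFPneg SGC0946.

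Against naive cells, 32 of the 38 genes were called higher and 0 lower in YFPpos SGC0649, against 42.6% of all tested genes called higher and 37.3% called lower. The median log2 fold change of the 38 was 0.81, beside 0.09 over all tested genes. Most tested genes were thus called in one direction or the other between uncultured and cultured cells, and the count is to be read against that. In bulk RNA a group with fewer cells of one type and a group with less RNA per cell cannot be told apart. In YFPneg SGC0649 cells 25 genes were called higher and 1 lower, beside 36.4% and 32.6% of all tested genes. In YFPpos SGC0946 cells the numbers were 28 higher and 6 lower (42.2% and 38.5% of all tested genes), and in YFPneg SGC0946 cells 19 higher and 6 lower (38.6% and 34.3%). These 4 comparisons share the naive libraries, so they are not independent of each other.

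Of the 6 genes for general nucleolar proteins, 5 were called higher and 0 lower in YFPpos SGC0649 against naive. The shares of all tested genes were 42.6% and 37.3%. Ncl, the nucleolar protein nucleolin (chr1:86344719-86359400, minus strand), was at 641, 645 and 629 CPM in naive cells and at 1981, 2285 and 2779 CPM in YFPpos SGC0649 cells. It was at 1866 and 1861 CPM in YFPneg SGC0649, at 1646, 1563 and 1774 CPM in YFPneg SGC0946 and at 1724, 1488 and 1787 CPM in YFPpos SGC0946. Every cultured library was above every naive one, and the rise was 1.88 in YFPpos SGC0649 and 1.55 (SE 0.10, adjusted p = 5.84e-10) in YFPneg SGC0649. Npm1, the nucleolar chaperone nucleophosmin, rose from a mean of 377 CPM to 1093 CPM in YFPpos SGC0649 and to 912 CPM in YFPpos SGC0946 (1.27, adjusted p = 1.02e-10). Per kilobase of exon, taken as the union over all annotated transcripts, it had the highest level of the 38. It was at 142 CPM per kb in naive and 410 CPM per kb in YFPpos SGC0649 cells. That rank depends on the annotation, since the union is 2665 bases for Npm1 and 10188 bases for Ncl, whose CPM was higher. Of the 50-base words of Npm1, 24.3% also occur in other annotated genes, first a processed pseudogene, so its counts are uncertain. The same holds for Pes1 (23.3%) and Nop56 (18.6%). Counts of Fbl are uncertain as well, with 19.7% shared, first with the protein-coding gene Tulp4. Noc2l shares 19.2%, first with Samd11, whose exons overlap it on the opposite strand, and the count table is named for reverse-strand counts. Nolc1, which escorts snoRNPs through the nucleolus, rose by 1.60 in YFPpos SGC0649 and by 1.30 (adjusted p = 3.64e-09) in YFPneg SGC0649.

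Tcof1, which encodes treacle, a factor of ribosomal DNA transcription, was called higher than in naive cells in 1 of the 4 cultured groups. It was at 263, 262 and 268 CPM in naive, 298 and 360 CPM in YFPneg SGC0649 and 256, 287 and 262 CPM in YFPneg SGC0946 cells. It was at 233, 263 and 291 CPM in YFPpos SGC0649 and at 175, 176 and 178 CPM in YFPpos SGC0946 cells. The YFPneg SGC0649 libraries were above the naive ones, with a rise of 0.32 (adjusted p = 0.00394) that was lost without replicate 62 (adjusted p = 0.136). The YFPpos SGC0946 libraries were the lowest of all 14, and against naive cells Tcof1 fell by 0.58 there (SE 0.08, adjusted p = 2.7e-06).

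Of the 6 Pol I genes, 3 were called higher and 0 lower in YFPpos SGC0649 against naive, beside 42.6% and 37.3% of all tested genes: Rrn3, the initiation factor that brings Pol I to its promoter, by 0.61, Polr1b, the second-largest subunit, by 0.80 and Polr1c, a subunit shared with Pol III, by 0.65. In YFPpos SGC0946, 3 rose and 3 fell, near the 42.2% and 38.5% of all tested genes. Those that fell were Polr1e (by 0.40, adjusted p = 0.00181) and Polr1a, the largest subunit (by 0.33, adjusted p = 0.0025), and Ubtf, which binds the ribosomal DNA promoter (by 0.14, adjusted p = 0.0493). The call for Ubtf was lost under 8 of 11 alternative settings.

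The snoRNP genes included the largest rise of the set. Nhp2, a core protein of box H/ACA snoRNPs (chr11:51619735-51623714, plus strand), was at 27.5, 27.0 and 25.7 CPM in naive cells. It was at 73.6 and 81.6 CPM in YFPneg SGC0649, and at 114, 130 and 147 CPM in YFPpos SGC0649 cells. With SGC0946 it was at 64.2, 69.9 and 51.2 CPM in YFPneg and 99.4, 91.2 and 110 CPM in YFPpos cells. Naive libraries were lowest, YFPneg libraries next and YFPpos libraries highest, and the rise in YFPpos SGC0649 was 2.29 (SE 0.12, adjusted p = 5.54e-12). Its partner Gar1 rose by 1.81 and the pseudouridine synthase Dkc1 by 1.28, while the fourth core protein, Nop10, was not called at 0.24 (adjusted p = 0.0664). All 4 box C/D genes rose in YFPpos SGC0649, beside 42.6% of all tested genes called higher. Nop58 rose by 1.69 (SE 0.09, adjusted p = 6.77e-12) and Nop56, its partner in the core, by 1.09. The methyltransferase Fbl rose by 0.73 and the U3 protein Rrp9 by 0.42. In YFPneg SGC0946 Rrp9 fell by 0.39 against naive (adjusted p = 0.00531), and Nop10 by 0.35 (adjusted p = 0.0143), a call that was lost without replicate 91 (adjusted p = 0.0715) or replicate 93 (adjusted p = 0.052).

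All 9 small-subunit genes and 7 of 8 large-subunit genes rose in YFPpos SGC0649 against naive, beside 42.6% of all tested genes. Bysl, a factor of late small-subunit maturation, rose from a mean of 29.7 to 75.9 CPM (1.36) and Utp20, a large scaffold protein of the small-subunit processome, from 106 to 158 CPM (0.58). Nop2, an RNA methyltransferase of the large subunit (chr6:125131909-125144753, plus strand), was at 67.3, 70.0 and 68.7 CPM in naive and 189, 204 and 238 CPM in YFPpos SGC0649 cells. These groups lay far apart, and the rise was 1.62 (SE 0.08, adjusted p = 5.23e-12). Wdr12, which forms the PeBoW complex with Pes1 and Bop1, was the exception. It was at 66.5, 70.7 and 60.8 CPM in naive, 42.5 and 43.3 CPM in YFPneg SGC0649 and 34.8, 42.9 and 43.9 CPM in YFPneg SGC0946 cells. It was at 56.4, 64.7 and 80.3 CPM in YFPpos SGC0649 and 46.1, 39.1 and 49.6 CPM in YFPpos SGC0946 cells. Only the YFPpos SGC0649 libraries overlapped the naive ones (0.03, adjusted p = 0.855), and Wdr12 fell by 0.62 (SE 0.14, adjusted p = 0.000818), 0.71 (adjusted p = 7.75e-05) and 0.55 (adjusted p = 0.000498) in YFPneg SGC0649, YFPneg SGC0946 and YFPpos SGC0946. Its complex partner Bop1 rose in 3 of the 4 cultured groups, by 0.87 in YFPpos SGC0649, and was not called in YFPneg SGC0946 (0.21, adjusted p = 0.0539).

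**Figure D2:**
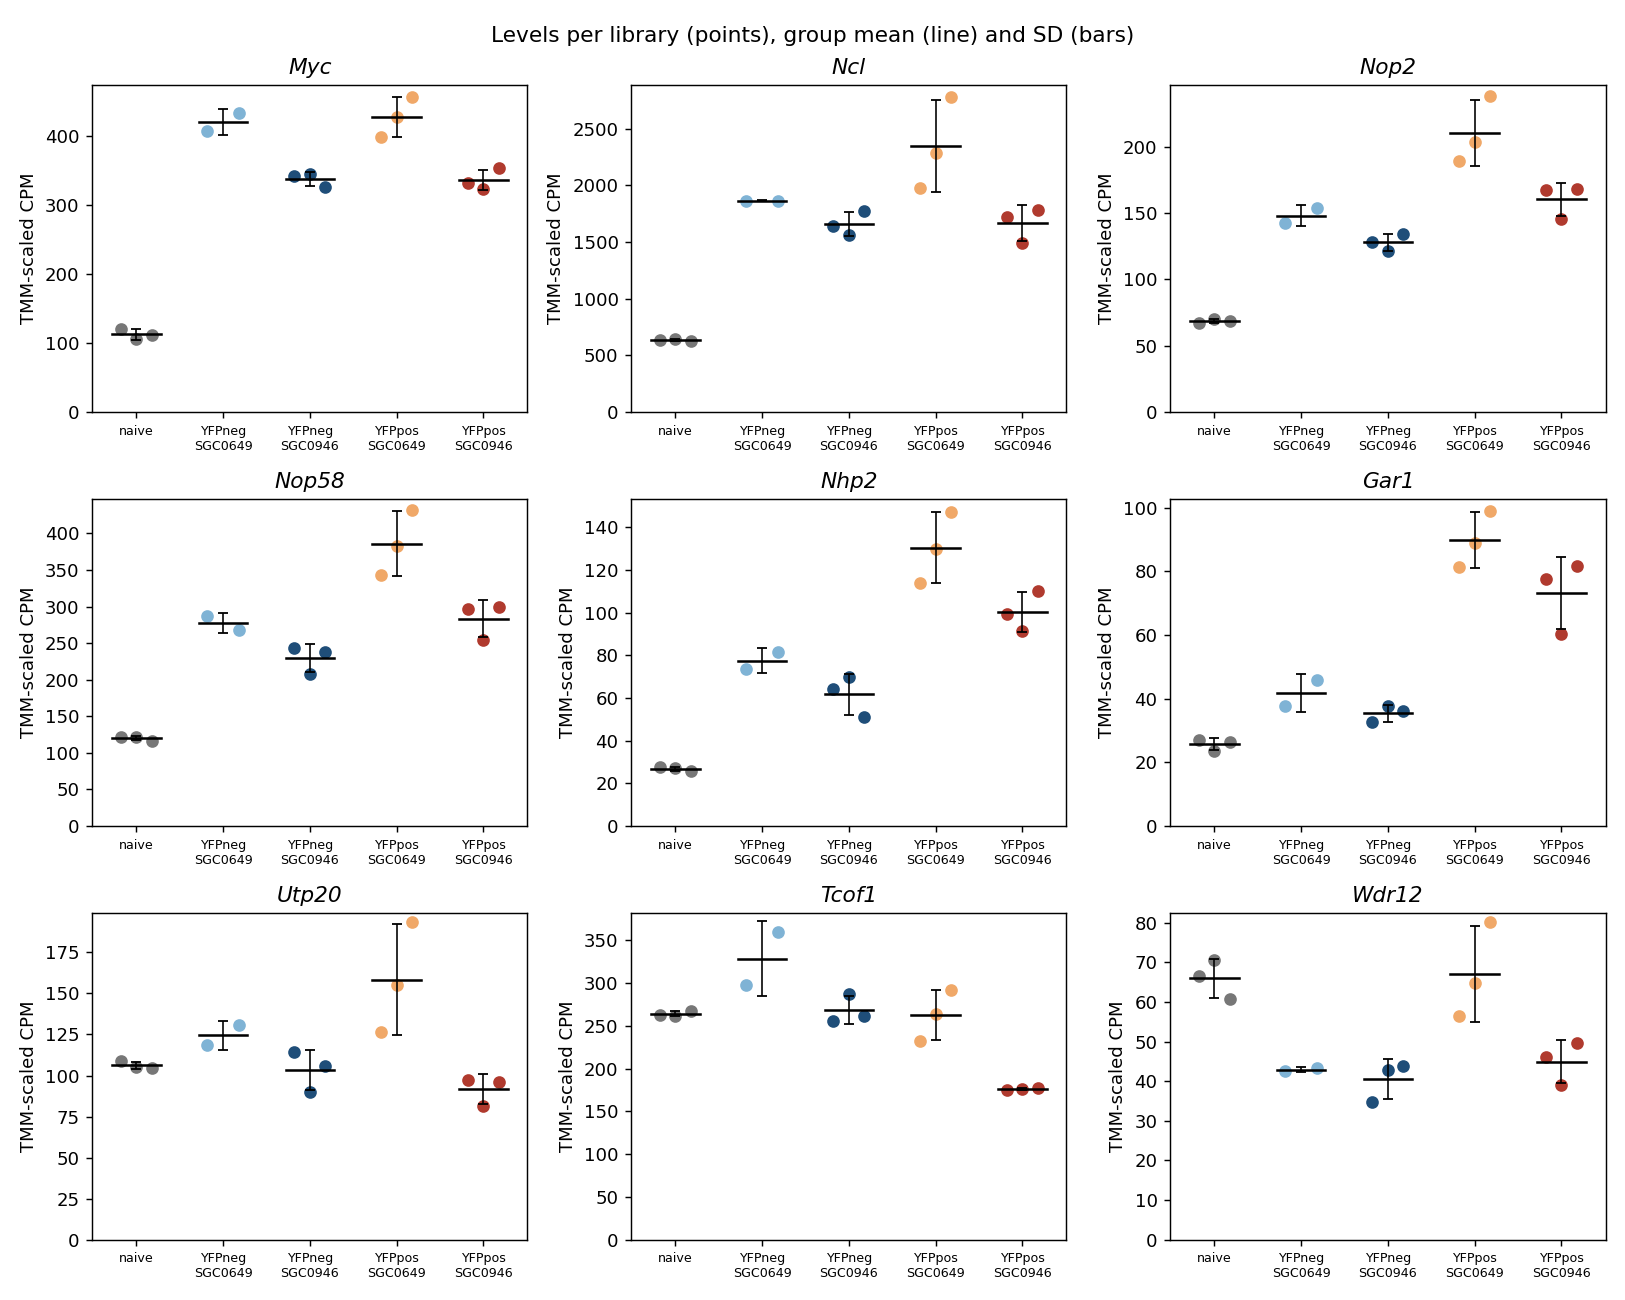
Level of 9 of the genes in TMM-scaled CPM on a linear axis from 0, with 1 point per library, the group mean as a line and the SD as bars. Myc is split by compound and not by sort, Nhp2 and Gar1 are split by sort, and Tcof1 is lowest in YFPpos SGC0946.

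Since Myc pairs with Max on the E-box CACGTG, the RefSeq promoters of the genes (build GRCm38.p6, 250 bases before to 50 after the start) were searched for it. The motif reads the same on both strands. An entry was found for 31 of the 38 genes, and Myc, Npm1, Tcof1, Fbl, Rrp12, Bop1 and Rrs1 had none. Some genes have more than 1 annotated start, and a gene was counted once if any of its windows held the motif. It was found for 6 of the 31 genes (19.4%), beside 2187 of 27025 genes with a RefSeq promoter (8.09%) and 1471 of the 16044 of them in the count table (9.17%). In the 250 bases before the start alone it was found for 2 of 31 (6.45%), beside 6.86% and 7.82%. The 6 genes are Nop2, Rrn3, Wdr43, Utp20, Ltv1 and Pes1, and their sites are shown because they place the motif in genes whose levels are given here. Capitals mark the motif, each with up to 10 bases on either side, 5′ to 3′ on the strand of the gene.
Nop2, 60 bases before the start, chr6:125131813-125131838, plus strand: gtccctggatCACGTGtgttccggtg
Rrn3, 215 bases before the start, chr16:13780474-13780499, plus strand: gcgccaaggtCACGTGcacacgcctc
Rrn3, 48 bases before the start, chr16:13780641-13780666, plus strand: acgctctgctCACGTGggccgcgtcc
Wdr43, 17 bases after the start, chr17:71616222-71616247, plus strand: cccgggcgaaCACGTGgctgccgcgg
Utp20, 37 bases after the start, chr10:88826765-88826787, minus strand: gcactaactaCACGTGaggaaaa
Ltv1, 28 bases after the start, chr10:13193094-13193119, minus strand: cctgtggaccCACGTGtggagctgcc
Pes1, 2 bases after the start, chr11:3963967-3963992, plus strand: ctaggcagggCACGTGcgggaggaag
A match describes the letters in a window and not binding. In the other lists of the pathway, 12 of 51 other ribosome assembly genes (23.5%) and 9 of 22 other Myc target genes (40.9%) had the motif in a window. So did 1 of 9 other Pol I genes (11.1%) and 4 of 11 Myc/Max network genes (36.4%). In the 250 bases before the start alone, the shares of these 4 lists were 13.7%, 40.9%, 11.1% and 27.3%.

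The sort was compared next, within each compound. With SGC0649, 31 of the 38 genes were higher in YFPpos than in YFPneg cells and 1 was lower, beside 23.9% and 21.3% of all tested genes called higher and lower. The median change was 0.39, beside 0.04 over all tested genes. With SGC0946, 19 genes were higher and 1 lower, beside 26.9% and 27.8% of all tested genes, with a median of 0.23 beside 0.01. Myc itself did not differ between sorts beyond the spread of its libraries. Its change was 0.02 (95% interval -0.12 to 0.17, adjusted p = 0.819) with SGC0649 and -0.01 (95% interval -0.14 to 0.13, adjusted p = 0.941) with SGC0946, and its sign turned under several alternative settings, other scaling of the libraries among them.

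The box H/ACA genes Gar1 and Nhp2 differed most between the sorts with each compound. Gar1 (chr3:129824912-129831396) was at 37.7 and 46.0 CPM in YFPneg and 81.5, 88.8 and 99.0 CPM in YFPpos cells with SGC0649. With SGC0946 it was at 32.5, 37.8 and 36.0 CPM in YFPneg and 77.8, 60.3 and 81.7 CPM in YFPpos cells. Every YFPpos library was above every YFPneg library, and the differences were 1.10 (SE 0.13, adjusted p = 3.87e-06) and 1.05 (adjusted p = 9.63e-07). Nhp2 was higher by 0.75 (adjusted p = 1e-04) and 0.70 (adjusted p = 4.1e-05).

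Among large-subunit genes, 8 of 8 were higher in YFPpos cells with SGC0649 and 7 of 8 with SGC0946. Of all tested genes, 23.9% and 26.9% were called higher with SGC0649 and SGC0946. Wdr74 went from a mean of 49.1 to 77.7 CPM with SGC0649 (0.66, adjusted p = 0.000177), and Nop2 from 148 to 210 CPM (0.51, adjusted p = 0.000196). Nop16 went from 44.4 to 68.5 CPM with SGC0946 (0.63, adjusted p = 0.000101). Among small-subunit genes, 7 of 9 were higher with SGC0649 and 2 of 9 with SGC0946, where Nob1, the nuclease of the last 18S cleavage, went from 56.0 to 75.1 CPM (0.42, adjusted p = 0.000528). All 4 box C/D genes were higher with each compound, while of 6 Pol I genes 3 and 2 were. The small-subunit and Pol I counts with SGC0946 were near the share of all tested genes.

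Tcof1 was the gene that was lower in YFPpos cells. It was lower by 0.32 (SE 0.09, adjusted p = 0.00583) with SGC0649, a call lost without YFPneg replicate 62 (adjusted p = 0.162), and by 0.61 (adjusted p = 6.18e-06) with SGC0946. With SGC0946 the YFPneg and YFPpos libraries did not overlap.

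With SGC0649 the YFPneg arm has 2 libraries, and the number of genes called higher was 17 without YFPneg replicate 61 and 20 without YFPpos replicate 63. Unmapped reads moved with the sort, at 3.14% to 4.62% in YFPneg libraries and 6.44% to 8.35% in YFPpos libraries other than replicate 92. Multi-mapping reads, which were left unassigned, were at 21.5% to 22.2% in YFPneg libraries and 24% to 25.7% in YFPpos libraries, replicate 92 included. The part of these reads in the result was not tested.

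**Figure D3:**
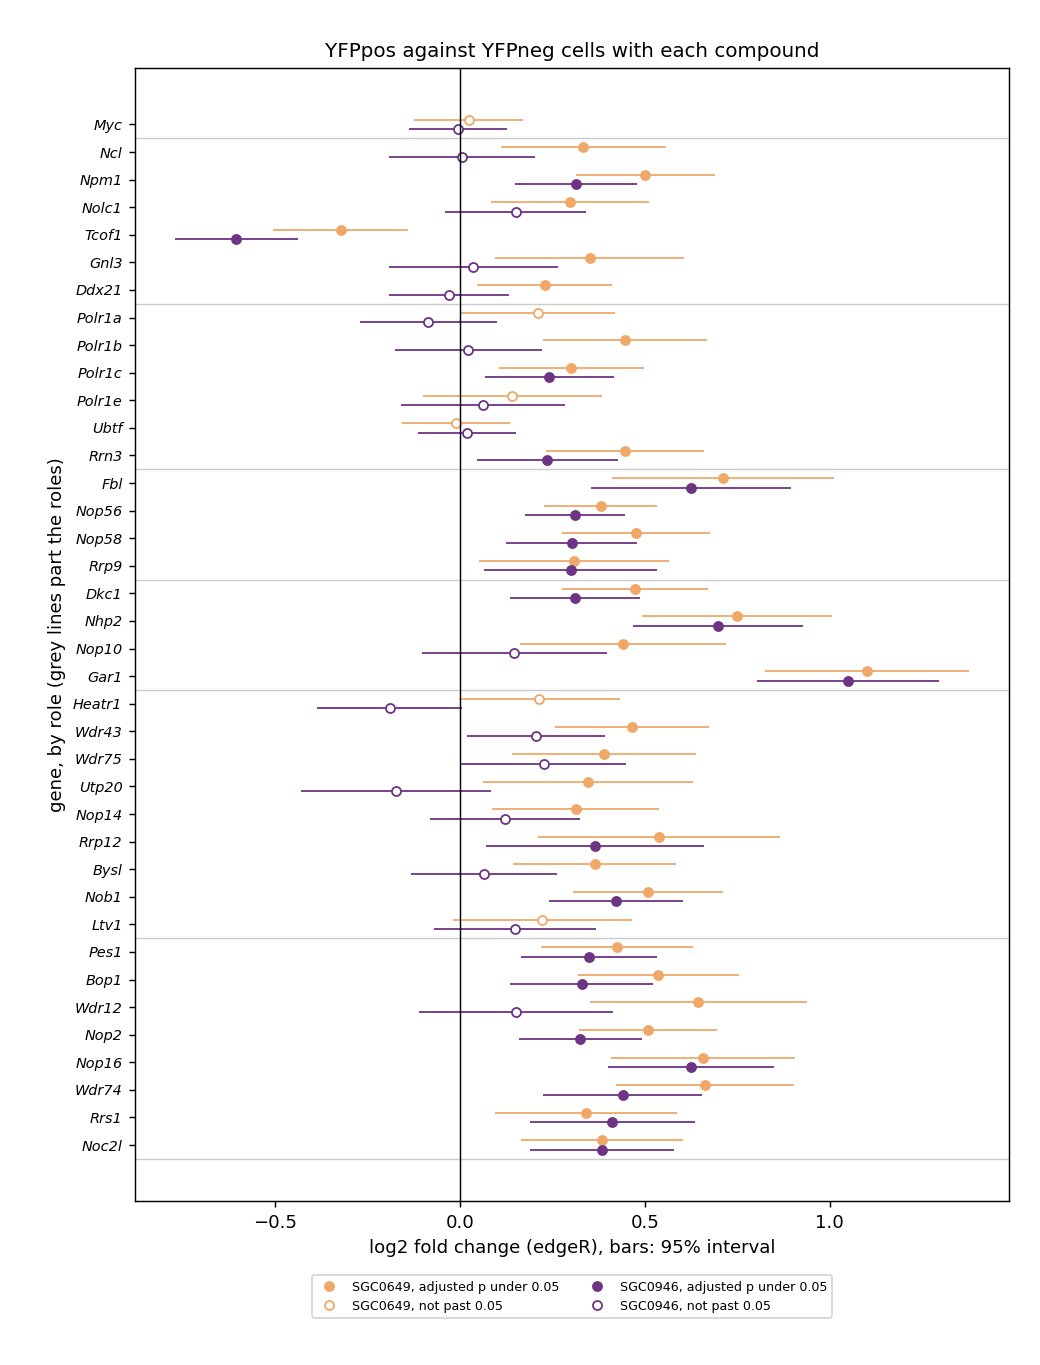
Log2 fold change of YFPpos over YFPneg cells for each of the 38 genes, grouped by role, with SGC0649 and SGC0946 in separate colours, 95% intervals as bars and filled points for calls at an adjusted p under 0.05. Gar1 lies farthest to the right near 1.10 and 1.05, Myc lies at 0 and Tcof1 lies to the left with each compound.

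The DOT1L inhibitor was compared with its inactive control within each sort. Each compound was given at 1 dose, 1 µM. In YFPpos cells 35 of the 38 genes were lower with SGC0946 than with SGC0649 and 0 were higher, beside 15.7% of all tested genes called lower and 12.1% called higher. The libraries of the compounds did not overlap for 36 genes, beside 33.1% of all tested genes in that direction. The log2 fold change was below 0 for 38 of 38 genes, beside 55.6% of all tested genes, and its median was -0.42, beside -0.04. The 3 genes not called were Gar1 (-0.29, adjusted p = 0.0585), Pes1 (-0.22, adjusted p = 0.0651) and Polr1c (-0.04, adjusted p = 0.788).

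Myc fell in YFPpos cells from a mean of 427 CPM with SGC0649 to 336 CPM with SGC0946, by 0.35 (SE 0.06, adjusted p = 0.000803). All 6 nucleolar genes fell. For these and the other roles below, 15.7% of all tested genes were called lower. Among the 6, Tcof1 changed from 262 to 176 CPM, a fall by 0.57 (SE 0.08, adjusted p = 7.71e-05). Ncl fell by 0.49 (adjusted p = 0.00115) and Npm1 by 0.26 (adjusted p = 0.0201). Of the Pol I genes 5 of 6 fell, with Polr1e down by 0.47 (adjusted p = 0.00287) and Ubtf by 0.27 (adjusted p = 0.00422). All 4 box C/D genes and 3 of 4 box H/ACA genes fell, among them Dkc1 from 239 to 171 CPM, by 0.48 (SE 0.08, adjusted p = 0.00051).

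All 9 small-subunit genes fell, with the largest change of the set in Utp20 (chr10:88746607-88826804, minus strand). Utp20 was at 127, 155 and 194 CPM with SGC0649 and at 97.6, 81.2 and 96.2 CPM with SGC0946. The 3 libraries of the inhibitor were below the 3 of the control, and the fall was by 0.79 (SE 0.12, adjusted p = 2e-04). Heatr1, another large scaffold of the small-subunit processome, fell from 205 to 134 CPM, by 0.61 (SE 0.09, adjusted p = 0.000179). Of the 8 large-subunit genes 7 fell, with Wdr12 down by 0.58 (adjusted p = 0.00238) and Bop1 by 0.33 (adjusted p = 0.0112).

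The number of calls in YFPpos cells depended on the libraries that stood apart. It was 26 without SGC0649 replicate 63, 26 without SGC0946 replicate 92 and 10 without both, and leaving out both was chosen after the data were seen. The calls over all tested genes fell as well, to 3.98% lower without both. Without both, 37 of 38 genes still had a log2 fold change below 0, beside 6954 of 12274 tested genes. The range was -0.54 to 0.01 and 28 had an unadjusted p under 0.05. The 10 genes were Myc, Ncl, Nolc1, Tcof1, Polr1b, Nop58, Dkc1, Heatr1, Utp20 and Bysl. These 10 were called under every one of the 12 alternative settings. Without both replicates, Utp20 fell by 0.54 and Heatr1 by 0.43. Among the genes then not called were Npm1 (adjusted p = 0.401), Bop1 (0.293), Polr1e (0.0992) and Wdr12 (0.0939). Of 5 myeloid markers the summed level was 0.476 to 2 CPM with SGC0649 and 5.22 to 6.45 CPM with SGC0946 in YFPpos cells. Itgam, integrin alpha M, made up 5 to 6.09 CPM of the latter, and Lyz2, Csf1r, Cd14 and Adgre1 were each at or below 0.159 CPM there, with Csf1r at 0.

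In YFPneg cells 10 of the 38 genes were lower with SGC0946 and 0 higher, beside 3.64% of all tested genes called lower and 4.99% called higher. They were Myc, Tcof1, Polr1e, Ubtf, Nop56, Rrp9, Dkc1, Ltv1, Rrs1 and Noc2l. The log2 fold change was below 0 for 37 of 38 genes, beside 48.6% of all tested genes, with a median of -0.23 beside 0.01. The libraries did not overlap for 22 genes (14.6% of all tested genes).

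Myc fell from 421 to 338 CPM in YFPneg cells, by 0.32 (SE 0.07, adjusted p = 0.0123). Ubtf fell from 337 to 274 CPM, by 0.30 (adjusted p = 0.0151). Rrs1, which helps to place the 5S RNA in the large subunit in yeast, was at 64.2 and 75.5 CPM with SGC0649 and ranged from 43.6 to 57.3 CPM with SGC0946. It fell by 0.50 (adjusted p = 0.0163), and Rrp9 fell by 0.50 (adjusted p = 0.0206). None of the 10 calls held under every alternative: 0 were left without SGC0649 replicate 62 (1.13% of all tested genes were then called lower) and 0 in a fit of the 2 groups alone. Without replicate 62, which leaves the control arm with 1 library, 35 of 38 genes were still below 0, beside 6004 of 12699 tested genes. The summed myeloid markers were at 0.411 to 1.93 CPM with SGC0649 and 2.09 to 6.2 CPM with SGC0946, again mostly Itgam (2.09 to 5.45 CPM with SGC0946), and Cd8a with Cd8b1 was at 6.5 to 9.51 and 12.2 to 19.7 CPM.

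**Figure D4:**
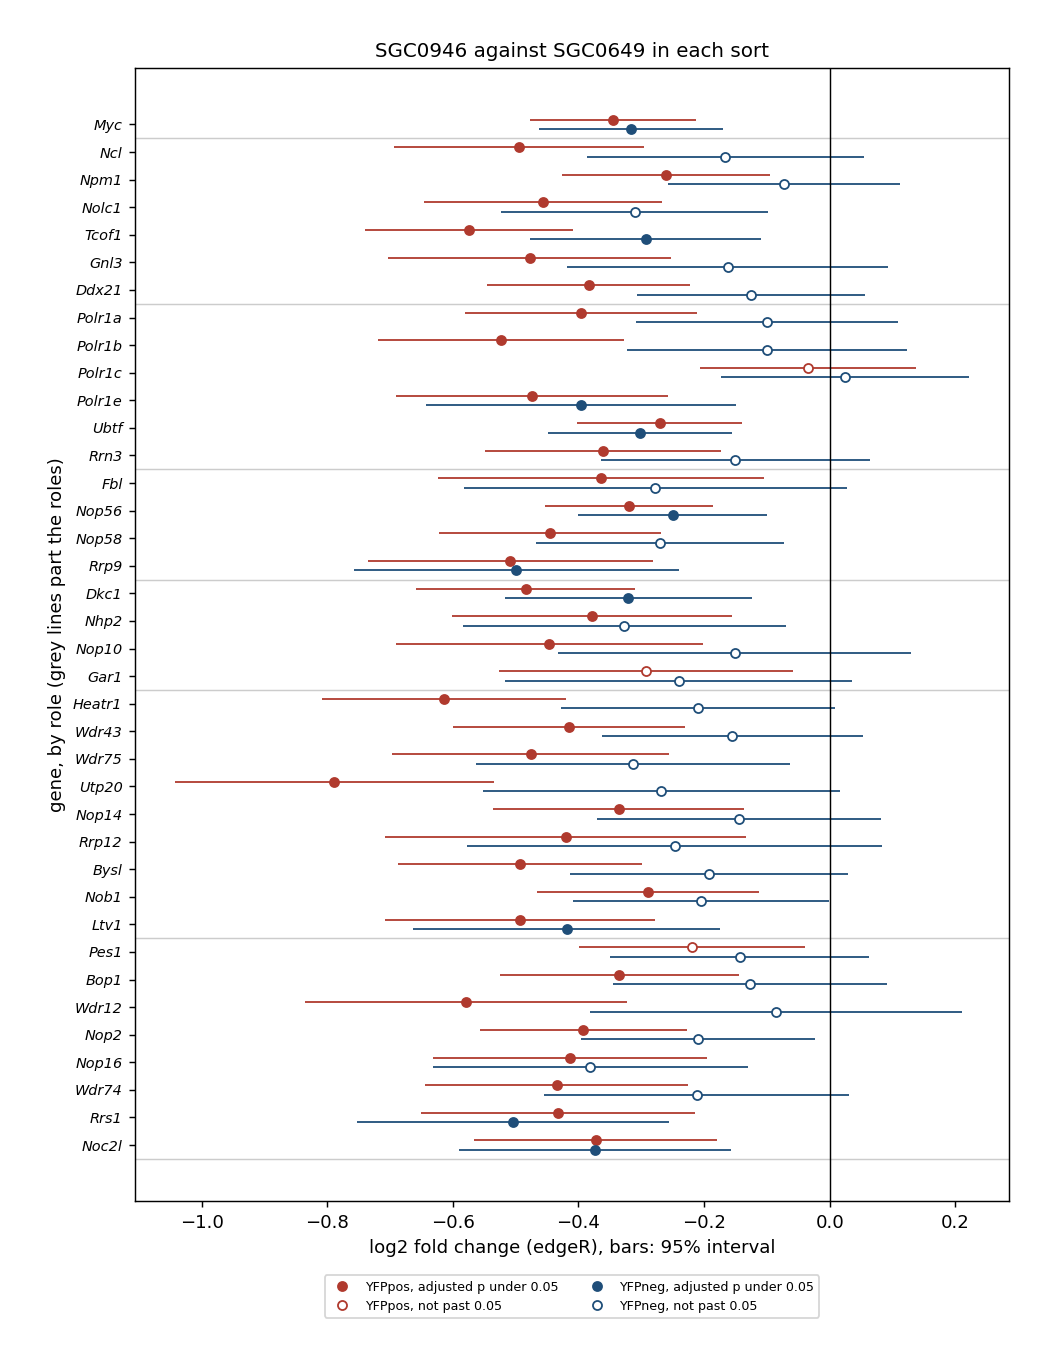
Log2 fold change of SGC0946 over SGC0649 for each of the 38 genes in YFPpos and YFPneg cells, grouped by role, with 95% intervals as bars and filled points for calls at an adjusted p under 0.05. All 38 YFPpos points lie left of 0, farthest for Utp20 at -0.79, and 37 YFPneg points do.

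Whether the inhibitor's effect differed between the sorts was tested directly, as the effect in YFPpos minus that in YFPneg cells. With edgeR 0 of 38 genes were called, beside 1.15% of all tested genes, and 9 had an unadjusted p under 0.05. DESeq2 and limma-voom also called 0. Those 9 were Ncl, Tcof1, Ddx21, Polr1a, Polr1b, Heatr1, Utp20, Bysl and Wdr12, and the change in each was more negative in YFPpos cells. Utp20 differed most (-0.52) and Polr1b (-0.42) had the lowest adjusted p, 0.18. For Myc the difference was -0.03, and its sign turned under several settings. The median over the 38 was -0.17, beside -0.04 over all tested genes, and -0.01 without replicates 63 and 92. The 35 calls in YFPpos and 10 in YFPneg cells are therefore not shown to be different effects.

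The rest of the pathway was taken from lists of other genes. Of 58 other ribosome assembly genes, 47 were higher and 3 lower in YFPpos SGC0649 than in naive cells, beside 42.6% and 37.3% of all tested genes. Lyar, a nucleolar growth regulator, rose by 2.04 (adjusted p = 8.36e-12) and Noc4l, a small-subunit factor, by 1.91 (adjusted p = 9.8e-12). Mdn1, the giant ATPase that strips factors from the maturing large subunit, fell by 1.34 (adjusted p = 8.97e-09). In the sort, 34 were higher and 0 lower in YFPpos cells with SGC0649 (23.9% and 21.3% of all tested genes), and 19 were higher and 3 lower with SGC0946 (26.9% and 27.8%). With the inhibitor 53 of the 58 fell and 0 rose in YFPpos cells (15.7% and 12.1% of all tested genes), and 7 fell and 0 rose in YFPneg cells (3.64% and 4.99%). Without YFPpos replicates 63 and 92 the 53 became 8, beside 3.98% of all tested genes, with 58 of 58 below 0. Leaving out YFPneg SGC0649 replicate 62 leaves 1 control library. There 57 of 58 were below 0 in YFPneg cells, and most of the 7 calls were lost. Mdn1 fell by 0.79 (SE 0.12, adjusted p = 0.000154) and the 18S RNA acetyltransferase Nat10 by 0.57 in YFPpos cells.

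Of 9 Pol I genes outside the 38, 4 were higher and 3 lower in YFPpos SGC0649 than in naive cells, near the 42.6% and 37.3% of all tested genes. Taf1c, a subunit of the selectivity factor that recruits Pol I, fell by 0.98 (adjusted p = 3.78e-09), and Polr1d, a subunit shared with Pol III, rose by 0.60 (adjusted p = 4.05e-07). With the inhibitor 3 of 9 fell and 0 rose in YFPpos cells (15.7% and 12.1% of all tested genes). Without replicates 63 and 92, 0 of 9 were called, beside 3.98% of all tested genes called lower.

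Among 25 other Myc target genes, 25 rose in YFPpos SGC0649 against naive, beside 42.6% of all tested genes. Odc1, the first enzyme of polyamine synthesis, rose by 4.15, and Tfrc, the transferrin receptor, by 3.78. With each compound none was lower in YFPpos than in YFPneg cells, and 23 with SGC0649 and 19 with SGC0946 were higher (23.9% and 26.9% of all tested genes). With the inhibitor 19 of 25 were lower in YFPpos cells and 4 of 25 in YFPneg cells (15.7% and 3.64% of all tested genes), and 0 were higher in either. Without YFPpos replicates 63 and 92 the 19 became 0, beside 3.98% of all tested genes, with 22 of 25 below 0. Leaving out YFPneg SGC0649 replicate 62 leaves 1 control library. There 22 of 25 were below 0 in YFPneg cells, and most of the 4 calls were lost. Tfrc fell by 0.40 in YFPpos cells and by 0.49 (adjusted p = 0.00423) in YFPneg cells.

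The Myc/Max network holds the relatives of Myc, its partner Max and the Mxd proteins, which pair with Max and repress. Of its 11 genes other than Myc, 6 rose and 2 fell with the inhibitor in YFPpos cells (12.1% and 15.7% of all tested genes), and 2 rose and 0 fell in YFPneg cells (4.99% and 3.64%). Without YFPpos replicates 63 and 92, 2 rose and 0 fell in YFPpos cells, beside 496 and 488 of 12274 tested genes. Without YFPneg SGC0649 replicate 62, which leaves 1 control library, the 2 rises in YFPneg cells did not both hold. Mycn, the N-Myc gene, had no read in any naive library and was at 0.457 and 0.36 CPM in YFPneg SGC0649 and 1.26, 1.24 and 1.17 CPM in YFPpos SGC0649 cells. It was at 1.92, 1.37 and 0.349 CPM in YFPneg SGC0946 and 8.76, 8.98 and 8.32 CPM in YFPpos SGC0946 cells. The YFPpos SGC0946 libraries were above all others, although Mycn stayed far below Myc in every library. These YFPpos values rest on 29, 26 and 27 counts with SGC0649 and 197, 226 and 271 counts with SGC0946, and the rise was 2.82 (SE 0.38, adjusted p = 0.000113). In YFPneg cells the libraries overlapped and Mycn was not called (1.59, adjusted p = 0.0854), and the difference between the sorts was not called (1.23, adjusted p = 0.466).

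Mxi1, a Max partner that represses Myc targets, was at 35.8, 33.2 and 26.2 CPM with SGC0649 and at 63.8, 75.7 and 63.0 CPM with SGC0946 in YFPpos cells. The groups did not overlap, and the rise was 1.09 (SE 0.12, adjusted p = 1.21e-05). In YFPneg cells Mxi1 rose by 0.67 (adjusted p = 0.0103) and Mxd4 by 0.51 (adjusted p = 0.00848). The call for Mxi1 was lost without SGC0649 replicate 62, which leaves 1 control library. Mxd1, another repressor of this family, was at 289, 224 and 173 CPM with SGC0649 and 309, 378 and 318 CPM with SGC0946 in YFPpos cells, a rise of 0.55 (adjusted p = 0.0052), and Mxd4 rose by 0.38 (adjusted p = 0.0064). Max, the shared partner, was at 162, 172 and 175 CPM with SGC0649 and 140, 132 and 140 CPM with SGC0946 in YFPpos cells, a fall by 0.30 (adjusted p = 0.00398). Without replicates 63 and 92 the adjusted p was 0.114 for Mxd1, 0.124 for Mxd4 and 0.0939 for Max, while Mxi1 and Mycn were called under every alternative. Against naive cells, Mxd4 fell from a mean of 182 CPM to 18.1 CPM and Mxd1 rose from 38.1 to 229 CPM in YFPpos SGC0649.

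**Figure D5:**
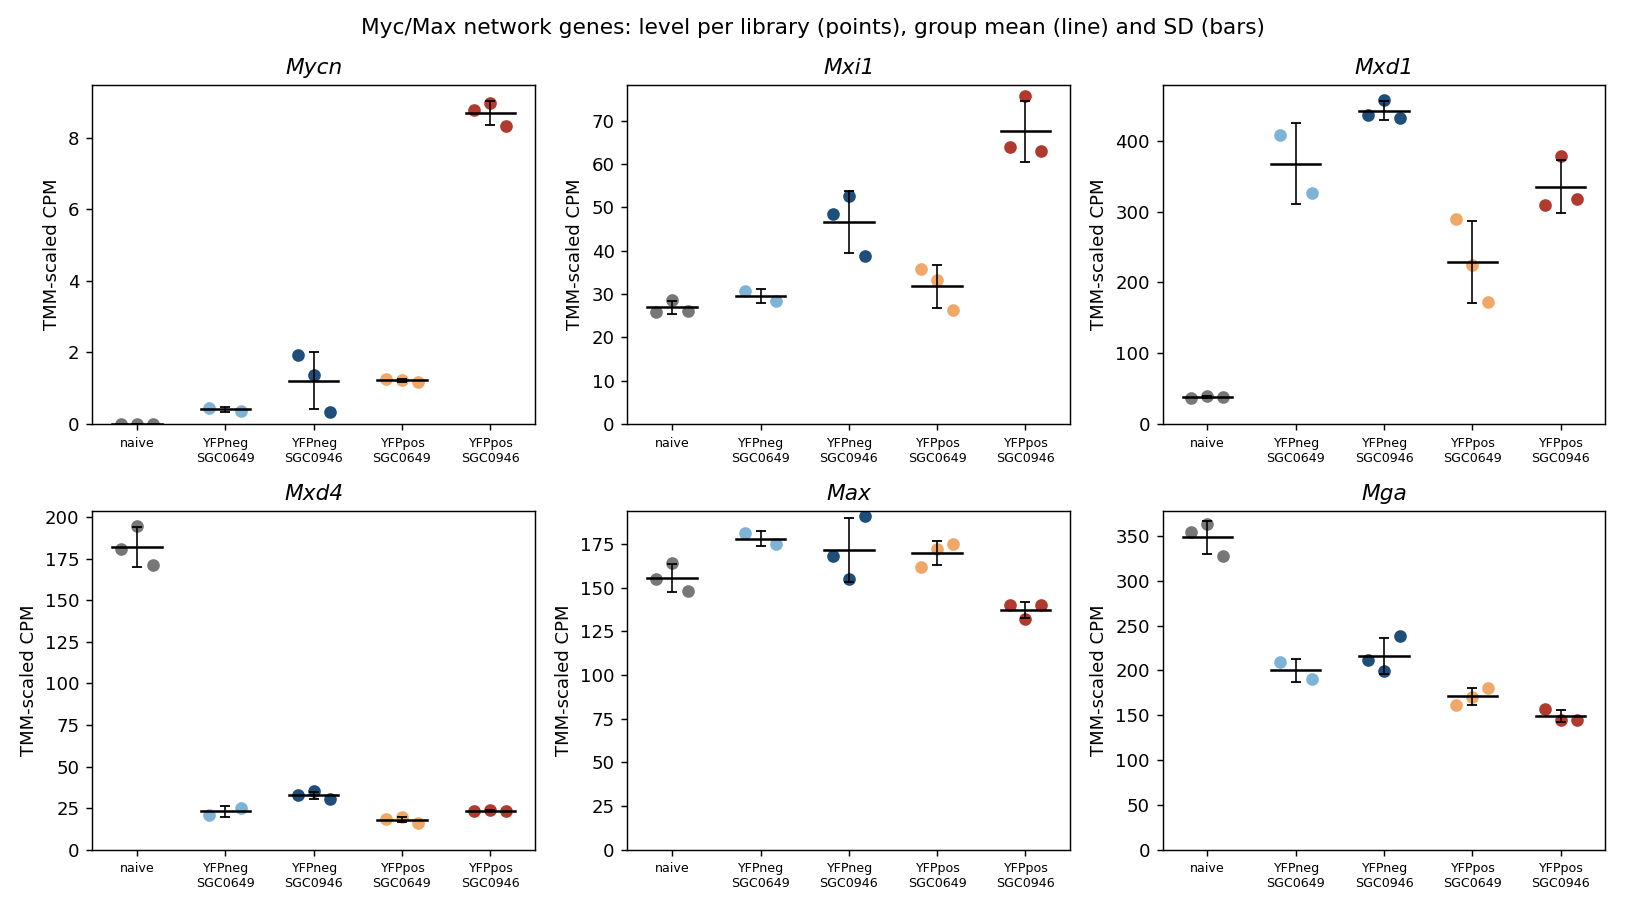
Level of 6 Myc/Max network genes in TMM-scaled CPM on linear axes from 0, with 1 point per library, the group mean as a line and the SD as bars. Mycn reaches 8.32 to 8.98 CPM in YFPpos SGC0946 and is below 2 CPM elsewhere, Mxi1 is higher with SGC0946 in each sort, and Mxd4 is high in naive cells.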

How the data were processed

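RNA was sequenced from 14 libraries. Per the submitters' processing notes the authors used featureCounts on GRCm38, and the deposited values are whole-number counts per gene without normalization. The count table is named for reverse-strand counts of protein-coding genes, and the deposited summary gives read counts per assignment category, with multi-mapping reads left unassigned. No aligner is named in the sources used here.

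In R 4.3.3, edgeR 4.0.16 filtered genes with filterByExpr by group and scaled with TMM factors (0.9523 to 1.033). All 14 libraries entered 1 quasi-likelihood fit with a coefficient per group. The common dispersion was 0.00831 and the prior count 0.125. Counts were simulated for the inhibitor comparison in YFPpos cells over 12343 genes. There 89 of 100 genes changed by 1 (log2) and 97 of 100 changed by 2 were recovered. Of the 193 calls made, 7 were false. The largest change of the followed genes in that comparison was -0.79 (Utp20). Recovery of changes as small as those reported was therefore not tested. Replicate libraries were compared by chi-square, and none were identical. Alternatives were DESeq2 1.42.0 (Wald test, and its size factors in edgeR), limma-voom 3.58.1, no low-count filter, the compared groups alone, each library left out and a block by title number. RefSeq and GENCODE M21 gave promoters and positions.

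Named genes are any of the 38, with full statistics for Myc and up to 4 called genes in each direction with the smallest p. Of the other lists, up to 4 called genes in each direction per comparison are named. The 38 genes and all lists were chosen with earlier results of these data known.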

Additional observations from a re-analysis of the deposited data

How the results depend on the processing

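Most counts and medians stayed within 1.5 times or within the spread of replicates under 10 to 18 alternatives per comparison. With each library left out in turn, the genes called higher in YFPpos than in YFPneg cells with SGC0649 numbered 17 to 34 and those called lower 0 to 1, those called lower with SGC0946 in YFPneg cells 0 to 10, and those called lower in the test of the difference between sorts 0 to 2, where the 2 came without YFPpos SGC0649 replicate 61. The genes called lower with SGC0946 in YFPpos cells numbered 26 to 37, and 10 without YFPpos SGC0649 replicate 63 and YFPpos SGC0946 replicate 92, chosen after the data were seen. In a fit of only the groups compared, 0 genes were lower with SGC0946 in YFPneg cells, and 2 were lower in YFPpos than in YFPneg cells with SGC0946. Same-numbered libraries of the sorts correlated at 0.037 to 0.202 in their deviations from the group means. Differently numbered ones correlated at -0.202 to 0.156 with SGC0649 and at -0.118 to -0.006 with SGC0946. The labels do not say that a title number stands for a single culture, so the main fit did not pair the samples. With the replicate block, 20 genes were called higher in YFPpos cells with SGC0649, beside 2129 of 12235 tested genes. With SGC0946, 3 were called lower, beside 3090 of 12235.

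The difference of Myc between sorts had no stable sign. With each library left out it ranged up to 0.0719 with SGC0649 and down to -0.0425 with SGC0946, and the difference of its inhibitor effects down to -0.0778. With SGC0649 it was -0.0159 with only the groups compared, -0.0192 without YFPneg replicate 61, -0.0402 without YFPpos replicate 63 and -0.0589 with the replicate block. With SGC0946 it was 0.0427 with DESeq2 and with its size factors in edgeR, 0.0025 without the filter, and 0.0104, 0.0042 and 0.02 without YFPneg replicate 92, YFPpos replicate 91 and YFPpos replicate 92. The difference of its inhibitor effects was 0.0119 with DESeq2 and its size factors, 0.001 with only the groups compared, 0.0138 without YFPneg replicate 61, 0.0267 without YFPpos replicate 63, 0.0491 with the replicate block and 0.0515 without replicates 63 and 92. The cause was not tested. DESeq2's size factors moved the median over all tested genes by -0.0116 to 0.0492. Replicates 61 and 62 alone carry the YFPneg control arm, which limits the 4 comparisons that use it.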
